A study of Mus musculus with 4 samples.

Results

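The GABA-A receptor genes Gabra2, Gabra4, Gabra5, Gabra6, Gabrb1, Gabrb2 and Gabrd were examined for TOP2B cleavage complexes in cultured mouse cortical neurons. A peak was assigned to a gene where its summit, the base of highest signal, lay in the gene's GRCm38 span or within 10 kb of it. This rule found 10 of the 35539 peaks of the list, at 5 of the 7 genes. It used position and not peak height. Dissociated wild-type neurons from embryonic day 16 Swiss-Webster mice had been given 50 µM etoposide, which keeps TOP2B covalently bound to the DNA ends it has cut, for 30 min before collection. There were 2 ChIP libraries (chromatin immunoprecipitation with an antibody to TOP2B) and 2 input libraries, all from etoposide-treated cells. No group without the drug and none without TOP2B was analysed here, and cell type markers cannot be checked in a peak list. The values came from 1 list pooled by the authors over libraries, so no value has a replicate error, and sequencing depth is unknown.

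GABA-A receptors are pentameric chloride channels opened by the transmitter GABA, and they carry most fast inhibition in the cortex. Alpha and beta subunits form the binding site for GABA, and a gamma or delta subunit usually completes the channel. The genes lie in clusters that arose by duplication, so that subunits used together are often neighbours. TOP2B, the type II topoisomerase of neurons, passes one DNA duplex through a cut in another and is bound to both cut ends while they are open.

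The start regions of these genes held no peak. RefSeq promoter windows of GRCm38.p6, from 250 bases before to 50 after a transcript start, were found for 6 of the 7 genes, 9 windows in all, and 0 of them overlapped a peak interval. Over all protein-coding genes, 1.25% of 21045 such windows did, so a count of 0 among 9 is near the background. The windows of 4 genes are shown because their starts differ in base composition and in motifs while sharing the lack of a peak. Gabra4 and Gabrb1 point away from each other on chromosome 5 and their spans share 388 bp at their starts. Capitals mark matches, on either strand, to the GC box (GGGCGG), the TATA box (TATAAA), the AP-1 site bound by Fos and Jun (TGANTCA) and the cyclic AMP response element (TGACGTCA). No matches overlapped each other in the 9 windows.
Gabra4, chr5:71658259-71658558, minus strand: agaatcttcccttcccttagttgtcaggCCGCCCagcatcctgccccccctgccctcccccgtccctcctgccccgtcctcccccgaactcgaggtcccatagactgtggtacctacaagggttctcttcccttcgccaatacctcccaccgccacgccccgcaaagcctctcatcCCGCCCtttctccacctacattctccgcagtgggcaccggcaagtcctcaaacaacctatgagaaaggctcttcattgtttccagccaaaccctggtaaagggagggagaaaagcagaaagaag
Gabrb1, chr5:71657671-71657970, plus strand: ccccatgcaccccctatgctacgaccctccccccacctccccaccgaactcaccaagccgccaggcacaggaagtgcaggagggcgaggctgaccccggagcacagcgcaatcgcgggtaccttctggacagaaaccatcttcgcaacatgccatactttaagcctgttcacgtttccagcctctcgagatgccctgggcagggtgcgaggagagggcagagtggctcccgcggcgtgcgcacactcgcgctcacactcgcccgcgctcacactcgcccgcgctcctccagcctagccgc
Gabrb2, chr11:42420190-42420489, plus strand: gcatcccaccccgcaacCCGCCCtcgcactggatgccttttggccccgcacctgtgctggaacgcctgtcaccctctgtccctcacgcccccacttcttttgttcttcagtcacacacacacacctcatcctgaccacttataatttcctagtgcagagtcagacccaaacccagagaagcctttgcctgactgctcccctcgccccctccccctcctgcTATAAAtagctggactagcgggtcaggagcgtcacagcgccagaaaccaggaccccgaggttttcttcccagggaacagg
Gabra6, chr11:42321023-42321322, minus strand: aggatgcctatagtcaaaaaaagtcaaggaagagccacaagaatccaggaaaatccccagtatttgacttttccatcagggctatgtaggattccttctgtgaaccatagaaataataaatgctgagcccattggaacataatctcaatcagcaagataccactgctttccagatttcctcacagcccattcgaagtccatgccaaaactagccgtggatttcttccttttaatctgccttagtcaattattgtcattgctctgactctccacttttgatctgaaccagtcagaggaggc
The Gabra4 window held 2 GC boxes, and the Gabrb1 window held none of these motifs but had 25 CpG dinucleotides. The Gabrb2 window held 1 TATA box and 1 GC box. The Gabra6 window was poorest in CpG, with 2, and its GC content of 42.0% was below the median of 56.7% over all windows. Of all windows, 46.7% held a GC box, 12.7% a TATA box, 7.04% the AP-1 site and 2.26% the cyclic AMP response element. The last 2 motifs had no match in the 9 windows of these genes. No genome sequence was used here, so the letters under the peaks themselves are not shown.

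Most of the 10 summits lay inside genes and far from a listed transcript start. Of the 10, 9 fell inside the span of their gene and 1 just outside Gabrd, and no summit fell within 1 kb of either end of a gene. Among all protein-coding genes, 8.3% had a summit within 1 kb of an end, so 0 of 7 is also near the background. The distance from a listed transcript start to the nearest summit was 85.5 kb for Gabra2, 73.2 kb for Gabra5, 60.9 kb for Gabra6 and 61.2 to 62.0 kb for the 3 starts of Gabrb2. It was 19.1 kb for Gabra4 and 19.5 and 22.5 kb for the 2 starts of Gabrb1. The median over all promoter windows was 21.1 kb, with quartiles of 7.91 and 49.6 kb. The listed starts of Gabra2, Gabra5, Gabra6 and Gabrb2 were thus beyond the upper quartile, and those of Gabra4 and Gabrb1 lay near the median. For Gabra5 this holds for the listed start only, which lies inside the gene's span. The upper end of that span, where this minus-strand gene begins, was 7.76 kb from a summit.

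**Figure D1:**
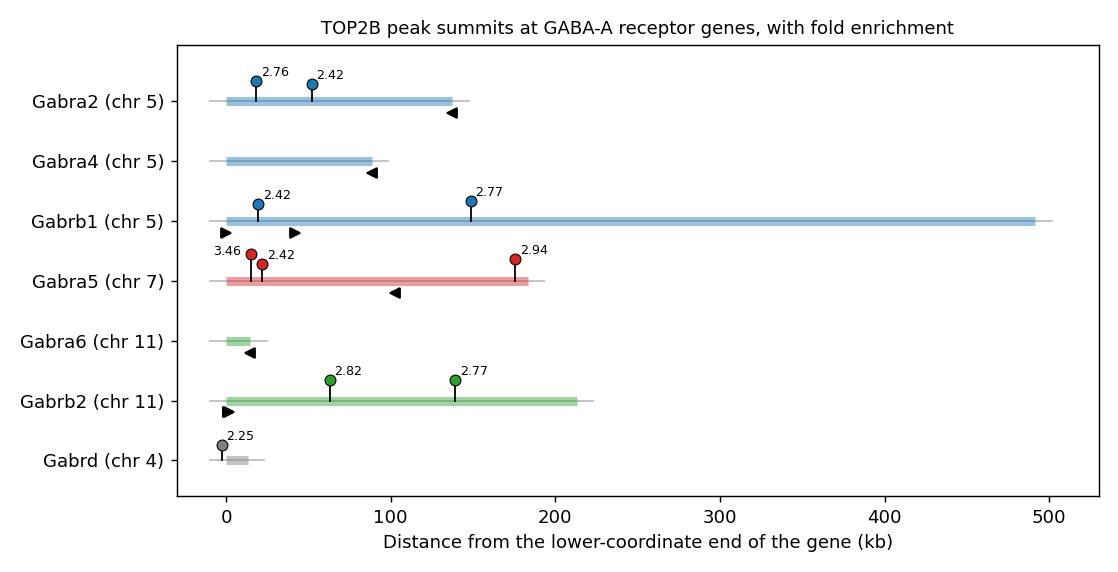
Positions of the 10 summits along the 7 genes, in kb from the lower-coordinate end of each gene. Thick bars are gene spans, thin lines the 10 kb flanks, lollipops the summits (stem height and number, fold enrichment over control), and triangles the listed transcript starts pointing in the direction of transcription (none was listed for Gabrd). Gabra4 and Gabra6 carry no summit, and no summit sits at a triangle.

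Gabra2 encodes the alpha 2 subunit, which is abundant early in cortical development. It spans 137.5 kb on chromosome 5, from 70958392 to 71095849 on the minus strand, and held 2 summits. The first peak ran from 70976286 to 70976480 and had a fold of 2.76 over control, with 16 ChIP fragments over a control of 5.17 and a q of 0.0884. The second ran from 71010251 to 71010440, with a fold of 2.42, 13 fragments and a q of 0.272. Both lay in the part of the gene away from its start, at 119 and 85.5 kb downstream of it. Fold is the authors' ratio of pileup to control at the summit, and fragments and control level were worked back from fold and p.

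Gabra4 encodes the alpha 4 subunit, which joins delta subunits in receptors outside the synapse. No summit lay in its 88.6 kb or the flanks, on chromosome 5 from 71569734 to 71658308. A count of 0 over this window of 108.6 kb allows up to 2.76 summits per 100 kb, taking 3 counts as the limit. The nearest summits were 139.5 kb below the gene and 19.1 kb above it, where the summit lies inside Gabrb1. Of autosomal protein-coding genes with 0.8 to 1.25 times its length, 18.9% also had none.

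Gabrb1 encodes the beta 1 subunit and is the longest of the 7 genes, at 491.7 kb, on the plus strand from 71657921 to 72149572. It held 2 summits. The first, with a fold of 2.42, 13 fragments and a q of 0.272, was at 71677437, between the 2 listed starts of the gene. The second was at 71806399, with a fold of 2.77, 15 fragments and a q of 0.110. From there to the end of the gene, 343 kb or 69.8% of its length held no summit. The 207 autosomal genes of like length had a median of 7 summits (quartiles 5 and 9), and 6.28% of them had 2 or fewer.

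Between Gabra2 and Gabra4, outside both windows, lay 453.9 kb with 3 further summits, none in a listed gene. They were at 71227751, 71288450 and 71430237. Their folds were 3.11, 3.29 and 2.94, each higher than the folds at the 3 genes of this chromosome, which ran from 2.42 to 2.77. Their q-values were 0.0390, 0.0208 and 0.0675.

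Gabra5 encodes the alpha 5 subunit, found mainly in hippocampal and deep cortical neurons and largely outside synapses. It spans 183.3 kb on the minus strand of chromosome 7, from 57407669 to 57591016, and carried 3 summits, the most among the 7 genes. Its peak from 57422575 to 57422823 was the strongest of the 10. That peak had a fold of 3.46, 19 fragments over a control of 4.78 and a q of 0.0102, and it was the 1 of the 10 with a q of 0.05 or less. A weaker peak followed 6.89 kb away, with its summit at 57429641, a fold of 2.42, 13 fragments and a q of 0.272. Over the list, 12.2% of neighbouring summits were that close or closer, and the median distance was 41.4 kb. These 2 summits lay 87.3 and 80.4 kb downstream of the listed start, towards the end of the gene. The third, at 57583254, lay 73.2 kb upstream of that start but inside the annotated span, 7.76 kb below its upper end. It had a fold of 2.94, 16 fragments and a q of 0.0675.

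Gabrb2 and Gabra6 are the members on chromosome 11. Gabrb2 encodes the beta 2 subunit, part of the most common adult receptor. Its 213.1 kb, from 42419515 to 42632591 on the plus strand, held 2 summits. The one at 42482389 had a fold of 2.82, 16 fragments over a control of 5.03 and a q of 0.0675. The one at 42558544 had a fold of 2.77, 15 fragments and a q of 0.110, and at 291 bp its peak was wider than the median of the list, 222 bp. Gabra6 encodes the alpha 6 subunit, whose expression is largely confined to cerebellar granule cells, and spans 14.6 kb from 42306437 to 42321072 on the minus strand. It had no summit, which allows up to 8.66 per 100 kb, and 48.6% of genes of like length also had none. The stretch without a summit around it was 222 kb long, and 5.26% of distances between neighbouring summits were that long or longer. That share counts distances and not sequence. Long stretches cover more sequence, so it does not give how often a gene lies in one.

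Gabrd encodes the delta subunit of receptors that give tonic inhibition outside synapses. It is 13.1 kb long, on chromosome 4 from 155384979 to 155398098, and lies outside the 3 clusters. Its 1 summit, at 155382255, was 2.72 kb below the gene's lower end and had the lowest fold of the 10, 2.25, with 12 fragments and a q of 0.405. This weak peak was also the widest of them, at 322 bp. The rule's limit of 10 kb left out a much stronger peak beside this gene, 25.2 kb below it at 155359779, with a fold of 4.15 and a q of 0.00013. The next summits outside the limit were 31.0 and 48.1 kb above Gabrd (folds 2.76 and 2.42) and 46.2 kb below Gabra6 (fold 2.94).

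The 10 peaks were ordinary in height for this list. Their median fold was 2.76 (range 2.25 to 3.46), and that of all 35505 peaks on the autosomes and X was 2.77. The strongest Gabra5 peak was at a fold that 5.81% of peaks reached or passed, and the Gabrd peak at one that 94.1% did. Of the 10, 8 were at the common lowest control level of 4.78, as were 72.8% of all peaks, so their folds follow the fragment count alone. Fragments at the summit ran from 12 to 19, with a median of 15 both here and in the list. A q of 0.05 or less was reached by 1 of the 10 peaks and by 23.4% of the list. At the level of genes, 1 of the 7 had such a peak, and 21.3% of all protein-coding genes did.

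**Figure D2:**
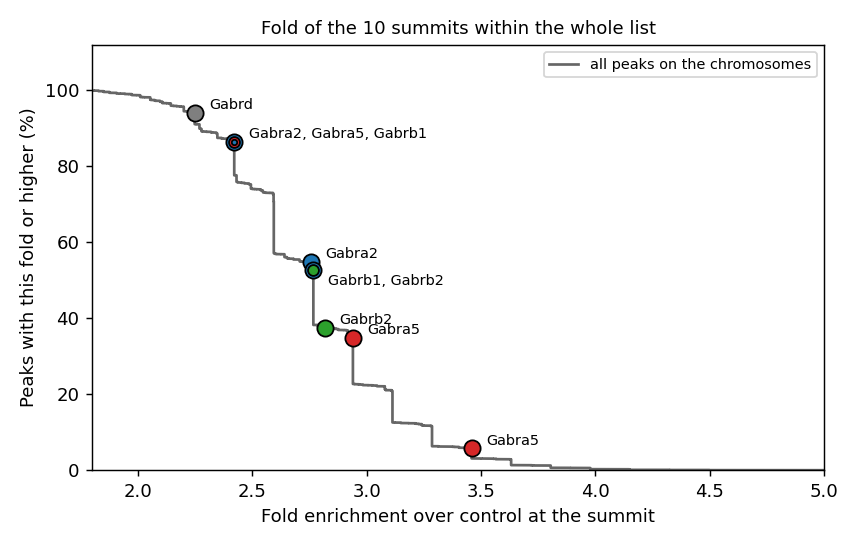
Fold enrichment of the 10 summits (points, coloured by chromosome and labelled by gene) on the curve of all 35505 peaks, which gives the percentage of peaks with that fold or a higher one. Points with the same fold are drawn inside each other. The strongest Gabra5 peak stands at 3.46, and the other 9 lie between 2.25 and 2.94.

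Whether these genes held fewer or more summits than other genes was asked by density. The 7 genes with their flanks cover 1261.5 kb and held 0.793 summits per 100 kb (95% Poisson interval 0.380 to 1.46). All other autosomal protein-coding genes with flanks of the same size held 1.72 per 100 kb. The ratio was 0.460, with an exact conditional 95% interval of 0.221 to 0.847. These intervals cover counting error only and take summits as independent. As a count of genes, 5 of 7 had a summit, and 53.4% of all protein-coding genes did, a share that rises with gene length. Genes of like length had a mean of 7.36 summits for Gabrb1, 3.60 for Gabrb2, 3.40 for Gabra5 and 2.79 for Gabra2. It was 1.91 for Gabra4, 0.826 for Gabra6 and 0.805 for Gabrd. These means add up to 20.7 summits, and 10 were found. That the interval of the ratio lay below 1 depended on the longest gene. Without Gabrb1 the ratio was still below 1, at 0.603, but its interval of 0.260 to 1.19 included 1.

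**Figure D3:**
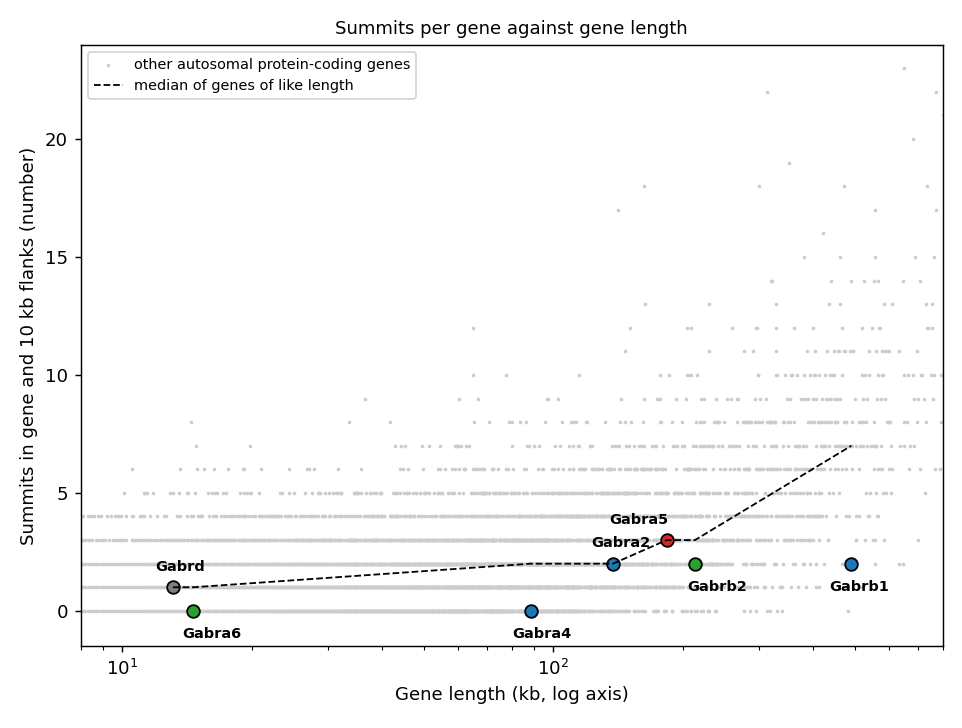
Number of summits in each gene and its 10 kb flanks against gene length in kb (log axis), for the 7 genes (coloured by chromosome and labelled) and for other autosomal protein-coding genes over the same range of lengths (grey). The dashed line joins the medians of the genes of like length to each member. Gabrb1, with 2 summits against a median of 7, stands farthest below it, and Gabra2, Gabra5 and Gabrd lie on it.

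The clusters were compared by the windows of their members. The 3 genes on chromosome 5 held 4 summits in 757.3 kb, or 0.528 per 100 kb (0.144 to 1.35). Gabra5 on chromosome 7 held 3 in 203.3 kb, or 1.48 per 100 kb (0.304 to 4.31). Gabra6 and Gabrb2 on chromosome 11 held 2 in 267.7 kb, or 0.747 per 100 kb (0.0905 to 2.70). The density on chromosome 5 was 0.707 times that on chromosome 11 (0.101 to 7.82) and 0.358 times that on chromosome 7 (0.0606 to 2.44). The density on chromosome 7 was 1.98 times that on chromosome 11 (0.226 to 23.6). All 3 intervals included 1, and with 2 to 4 summits each they are too wide to show whether the clusters differ or are alike.

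Set against the rest of their own chromosomes, only the chromosome 5 members had an interval clear of 1. Their density of 0.528 per 100 kb was 0.337 times the 1.56 per 100 kb elsewhere on the chromosome (0.0919 to 0.865). Without Gabrb1 that ratio was 0.481 (0.0583 to 1.74), and without Gabra2 or Gabra4 its interval stayed below 1. On chromosome 7 the ratio was 0.964 (0.199 to 2.82), on chromosome 11 it was 0.406 (0.0491 to 1.47), and for Gabrd on chromosome 4 it was 1.96 (0.0495 to 10.9). Sequence within 1 Mb of the chromosome 5 members, outside their windows, was also sparse, at 1.07 per 100 kb, and the members stood at 0.494 times that level (0.125 to 1.43). Around Gabra5 the surroundings had 0.960 per 100 kb, so that the gene was at 1.54 times its surroundings (0.291 to 5.22). Around the chromosome 11 members they had 1.75 (ratio 0.427, 0.0498 to 1.66), and around Gabrd 2.73 (ratio 1.11, 0.0275 to 6.44). The surroundings stood at 0.679 times the remainder of their chromosome on chromosome 5 (0.442 to 0.997), 0.623 times on chromosome 7 (0.375 to 0.976) and 1.79 times on chromosome 4 (1.34 to 2.34), each interval without 1. On chromosome 11 the ratio was 0.949 (0.663 to 1.32). The part of this regional density in the low count at the chromosome 5 genes was not tested.

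**Figure D4:**
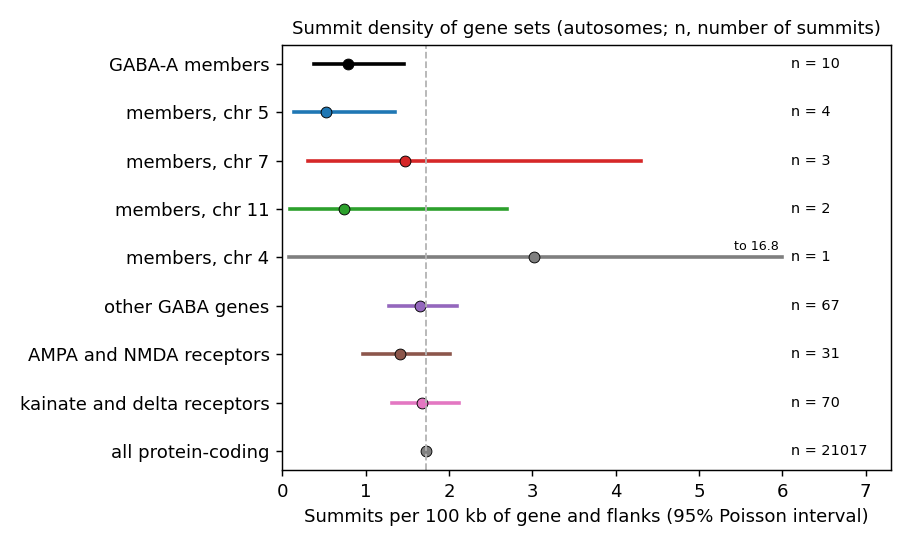
Summits per 100 kb of gene and 10 kb flanks, with 95% Poisson intervals, for the 7 genes, for the members on each chromosome, for 3 other gene lists and for all protein-coding genes, autosomes only (n, number of summits). The dashed line is the density of all protein-coding genes, 1.72. The interval of the 7 genes together and that of the chromosome 5 members end below it, and the interval of Gabrd runs past the axis to 16.8.

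Glutamate receptors carry fast excitation, and their genes were compared as like sets. The GABA-A genes had 0.471 times the density of kainate and delta glutamate receptor genes (0.217 to 0.919), which held 70 summits in 7 genes at 1.68 per 100 kb. They had 0.559 times the density of the 10 autosomal AMPA and NMDA receptor genes, which held 31 at 1.42 per 100 kb, and that interval of 0.244 to 1.17 included 1. Of 35 other genes of GABA signalling, which comprise receptor subunits, transporters, synthetic enzymes and scaffold proteins, 19 had a summit (54.3%, against 53.4% of all protein-coding genes). The 31 of them on autosomes had 1.65 summits per 100 kb, and the ratio of the 7 genes to them was 0.480 (0.220 to 0.938). Without Gabrb1, the ratio was 0.617 to the kainate and delta genes (0.256 to 1.28) and 0.628 to the other GABA genes (0.261 to 1.31), and without Gabra4 it was 0.516 to the other GABA genes (0.237 to 1.01). Among them, Gabrg3, the gamma 3 subunit gene on chromosome 7, had the highest fold, 4.50, and held 7 summits in 670.8 kb (1.01 per 100 kb). Gphn, which encodes gephyrin, the scaffold of inhibitory synapses, held 12 summits in 467.4 kb, with a highest fold of 3.46. Gabrb1, a gene of 491.7 kb, held 2 summits, with a highest fold of 2.77. Abat, which encodes the enzyme that breaks down GABA, held 4 summits in 108.1 kb, with a highest fold of 3.80. Clptm1, whose product holds GABA-A subunits back in the endoplasmic reticulum, held 2, with a highest fold of 3.63, and Gabarap, a GABA-A receptor trafficking gene, also held 2, with a highest fold of 3.46. The synthetic enzyme genes Gad1 (40.7 kb) and Gad2 (72.9 kb), the vesicular transporter gene Slc32a1 (8.5 kb) and the GABA-B receptor gene Gabbr1 (28.3 kb) had none. The other GABA-B receptor gene, Gabbr2, held 11 summits in 329.4 kb (3.15 per 100 kb), with a highest fold of 3.29. Gabrg1, a gamma subunit gene of 91.6 kb on chromosome 5, also had none. A lack of summits is common at such lengths: 48.6% of genes of like length to Gabra6 (14.6 kb) and 18.9% of those to Gabra4 (88.6 kb) had none.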

How the data were processed

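TOP2B ChIP and input libraries of etoposide-treated cortical neurons were represented by 1 peak list pooled by the authors, in narrowPeak layout without a header. The submitters' processing notes name FastQC, Trimmomatic, BWA, SAMtools and MACS2, without versions, and the builds GRCm38.p6 and mm10. How the caller was set is not given in the sources used. The fold of each peak is a deposited linear ratio, and its −log10 p and −log10 q are deposited values of the authors, identified by column order. The display score is deposited too and was not used. Positions were made 1-based. Pileup and control level were solved from fold, with 1 added to both, and the Poisson tail p, within 0.002 of −log10 p. A single solution was found for 35531 peaks (99.977%).

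Gene spans came from the RefSeq table of GRCm38.p6 (21631 protein-coding genes on the autosomes and X) and promoter windows from a RefSeq table of the same build. Exon and intron classes were not analysed here. Windows of 1 kb at either end defined gene ends. Densities used merged gene windows, with exact Poisson intervals, and ratios the exact conditional binomial interval. No p-value was computed. Genes of like length were autosomal protein-coding genes of 0.8 to 1.25 times the length. Counting steps were tested on simulated data with Python 3.11.15, numpy 2.4.6, pandas 2.3.3 and scipy 1.17.1. Figures used matplotlib 3.10.9.

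All 7 genes are named, with every summit, as none holds more than 10. Other GABA genes are given as counts, with the 5 of highest fold named. Gad1, Gad2, Slc32a1, Gabbr1, Gabbr2 and Gabrg1 were named after their values were seen. The members and lists were chosen with earlier results of these data known, and the glutamate receptor sets, the ratios to other gene sets and to surroundings, and leaving out single genes were chosen after seeing the data. Depth per library is unknown and limits every value.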

Additional observations from a re-analysis of the deposited data

How the results depend on the processing

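Across the other settings tried, 5 values of the member counts, densities and folds moved and the others stayed within their intervals or within 1.5 times the count. With peaks of q 0.05 or less, the 7 genes held 0.0793 summits per 100 kb, 1 gene had a summit and the median fold was 3.46. The ratios between chromosomes could not be computed there, since the members on chromosomes 5 and 11 had no summit left. With peaks of fold at or above the median, 3 genes had a summit. With a window of 5 kb at gene ends, 1 gene, Gabrd, had a summit at an end, against 0 as reported. A flank of 50 kb gave all 7 genes a summit, and no flank gave 4. The ratio to other autosomal protein-coding genes was below 1 in each setting run, but its interval included 1 with peaks of q 0.05 or less (0.194), with peaks of fold at or above the median (0.433) and without Gabrb1 (0.603). Without each of the other 6 genes in turn it ran from 0.384 to 0.495. The small number of summits, 10, limits every density, and pooled peaks leave the spread between cultures unknown. No paired analysis was possible because the list was pooled over libraries. The p and q of each peak are the authors' comparison of ChIP with control in the pooled list, and no test across replicate samples was run.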
